A study of Homo sapiens with 4 samples.

Results

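The 38 genes described here encode the working parts of the lysosome: 7 membrane proteins and exporters, 7 proteases, 8 glycosidases, 7 lipid enzymes, saposins and sulfatases, and 9 subunits of the vacuolar proton pump (V-ATPase). They were taken by symbol from a list of lysosomal genes, and all 38 were found among the 61541 genes of the count files. Of these, 37 had enough reads to be tested, among 15778 genes tested in all. The cells were H1299, an established line from a lung carcinoma, grown in DMEM with fetal bovine serum and antibiotics. One group of 2 libraries came from cells given phosphate-buffered saline (PBS, the control), and the other group of 2 from cells given nanoparticles made from fresh ginseng. Messenger RNA was sequenced to look at transcripts linked to cell migration.

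Lysosomes are acidic compartments in which the cell breaks down material taken up from outside or delivered by autophagy. The V-ATPase burns ATP in its cytosolic V1 sector to drive protons through its membrane-embedded V0 sector, and the acid hydrolases of the lumen need the low pH that results. Many lysosomal genes carry a promoter element bound by the transcription factors TFEB, TFE3 and MITF, which enter the nucleus when lysosomes are stressed or nutrients run short.

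Counts on genes ran from 22252686 to 24979081 per library, and the biological coefficient of variation estimated by edgeR was 2.46%. Dose, exposure time and plant part are not in the labels. Both libraries with nanoparticles bear "control" in their titles as well, and they were grouped by the treatment field instead. No label ties the 2 libraries of a group to separate cultures, so p-values measure only the spread between these samples, and that spread could be technical. VIM, KRT8, KRT18 and NTSR1, taken as markers of the line, were present at 66.0 to 2390.0 CPM (read counts relative to library size, with TMM scaling). All 4 were lower with nanoparticles (edgeR adjusted p from 0.000526 to 0.0240), against 0.83% of all tested genes. They were picked with earlier results of these data known, so that count is not read as a result. Their median log2 fold change was -0.13, and -0.086 with trends in transcript length and GC content removed. Of 10 markers of blood, endothelial, fibroblast and lung epithelial cells, PTPRC, SFTPC and SCGB1A1 had no count in any library, and all 10 together summed to 1.25 to 1.80 CPM.

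The promoter element is shown first, as a sequence feature known from many lysosomal genes. A higher share among the members than among all genes could therefore be expected beforehand. Its core is TCACGTGA, its longer form adds a G before and a C after the core, and its shortest form is CACGTG. The 3 forms are nested, and each reads the same on both strands. RefSeq start-site windows (250 bases before to 50 after the start, build GRCh38.p14) were matched for 27 of the 38 genes. The core lay in a window of 5 of the 27 (18.5%), against 1.18% of all 27305 genes with a window. The longer form lay in 2 (7.41% against 0.421%) and the shortest form in 8 (29.6% against 8.77%). Below are 30 bases around 1 copy for each of the 5 genes, 5′ to 3′ on the gene's strand, with the core in capitals.
LAMP1 (chr13:113297199-113297228, plus strand): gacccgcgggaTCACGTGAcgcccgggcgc
MCOLN1 (chr19:7522598-7522627, plus strand): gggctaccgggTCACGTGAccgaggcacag
CTSA (chr20:45891298-45891327, plus strand): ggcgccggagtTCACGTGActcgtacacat
GAA (chr17:80101493-80101522, plus strand): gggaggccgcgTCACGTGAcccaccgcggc
ATP6V0D1 (chr16:67481199-67481228, minus strand): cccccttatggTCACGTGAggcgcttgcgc

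The copies shown for MCOLN1 and GAA have the longer form. A match describes these letters only, and binding was not measured. The 5 genes with the core had log2 fold changes with nanoparticles between -0.068 (CTSA) and 0.0069 (MCOLN1), with a median of -0.037, and none passed an adjusted p of 0.05. The 21 other tested members with a window had a median of -0.013, and the 11 members without a window were not searched.

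Most lysosomal genes had fold changes near 1 with nanoparticles, and so did genes in general. Over all tested genes, the lower and upper quartiles of log2 fold change were -0.075 and 0.082. GLA, which encodes a glycosidase, was the 1 member of 37 with an adjusted p under 0.05, and it was higher (edgeR quasi-likelihood test, Benjamini-Hochberg adjustment over all 15778 genes). The background was 2.58% of all tested genes, with 1.75% higher and 0.83% lower, so 1 of 37 is near it. No member passed in the lower direction. At an unadjusted p under 0.05 there were 8 members (21.6%, background 16.8%), of which 3 were higher (background 9.18%) and 5 lower (background 7.61%). Log2 fold changes ran from -0.11 to 0.20 with a median of -0.012, beside a median of 0.00056 over all tested genes. For 31 of the 37 members the whole 95% interval of the fold change lay within 1.2-fold in either direction. The share over all tested genes was not computed. The median SE was 0.040 for the members and 0.073 for all tested genes, so the count is not read as a trait of lysosomal genes. In bulk RNA, fewer cells that express a gene and less of its RNA per cell cannot be told apart.

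**Figure D1:**
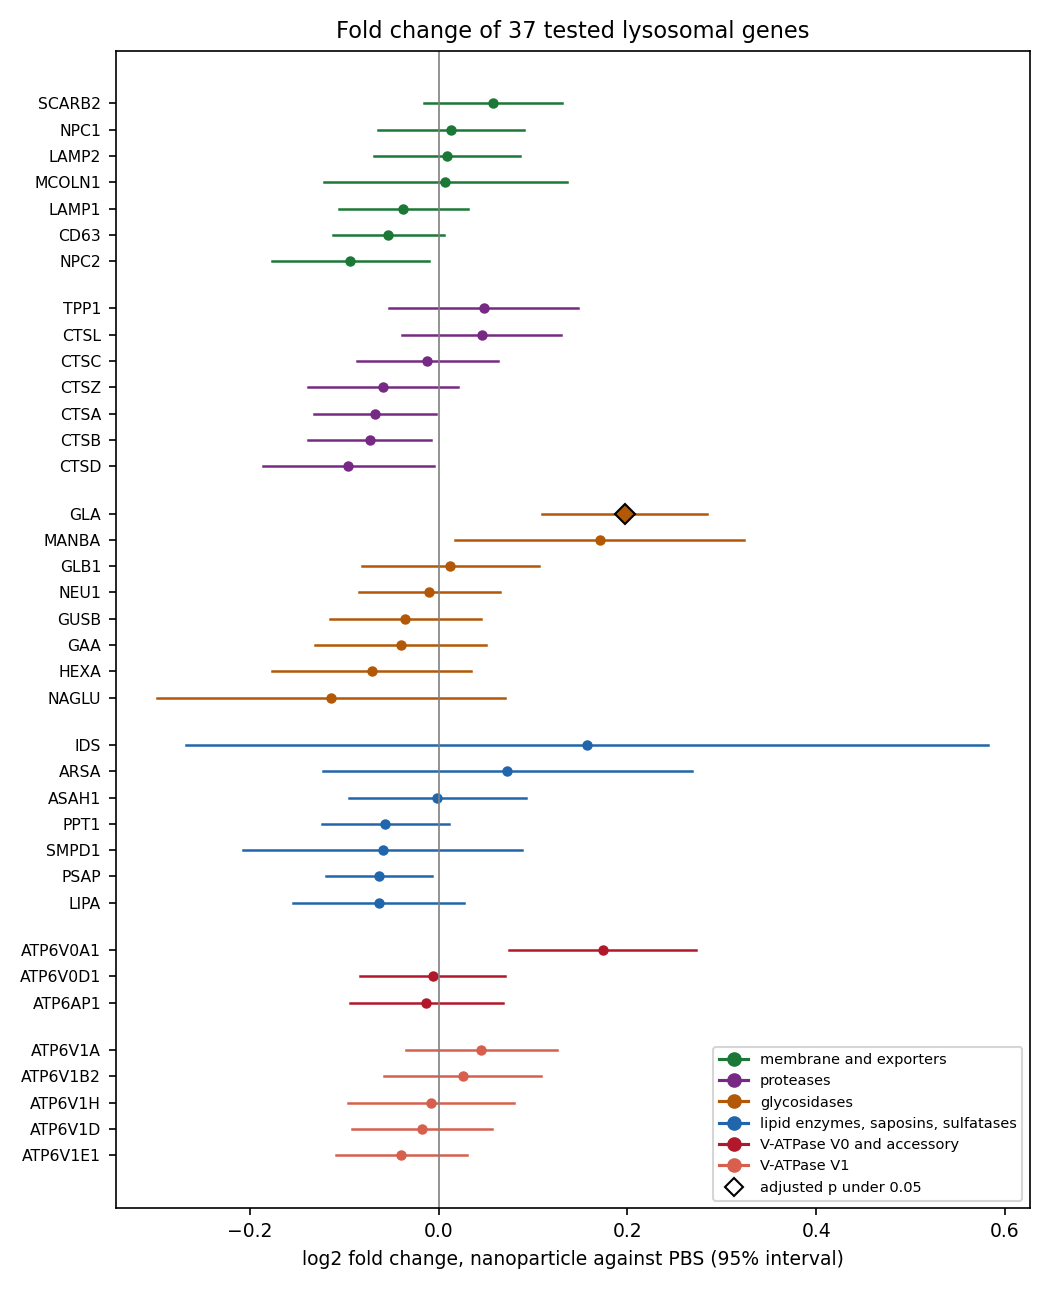
Log2 fold change, nanoparticle against PBS (x axis), of the 37 tested lysosomal genes, ordered within their role (colour), with the 95% interval of the edgeR fit as a line. GLA, the gene with an adjusted p under 0.05, is a diamond, and the interval of IDS, from -0.27 to 0.58, is the widest.

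Of the 37 members, 14 had a log2 fold change above 0 (37.8%, background 50.2%) and 23 below. In 13 members both nanoparticle libraries lay below both PBS libraries (35.1%, background 23.2%), and in 6 both lay above (16.2%, background 23.7%). Together 19 members had groups that did not overlap (51.4%, background 46.9%). Counts summed over the 38 genes and scaled to library totals were 4536 and 4557 CPM in PBS and 4510.5 and 4450.1 CPM with nanoparticles. Both sums with nanoparticles were the lower ones, and the group means differed by -66.0 CPM, or -1.45% (exact two-sided permutation test, p = 0.333, the smallest that 2 against 2 libraries allow). Abundant genes weigh most in such a sum. By role, the mean sums of glycosidases (1.18%) and of V0 and accessory subunits (1.82%) were higher with nanoparticles, and those of the other roles were lower.

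Among the glycosidases, which cut sugars from glycolipids and glycans, GLA rose with nanoparticles. It encodes alpha-galactosidase A, the enzyme deficient in Fabry disease, and lies on chromosome X from 101397803 to 101408012 (GRCh38, GENCODE 29, minus strand). GLA had 69.5 and 67.3 CPM in PBS and 78.4 and 78.3 CPM with nanoparticles. Both nanoparticle libraries were above both PBS libraries. The log2 fold change was 0.20 (SE 0.042, 95% interval 0.11 to 0.28), or 14.6% higher (edgeR adjusted p = 0.0139). No exon of another gene overlaps it in GENCODE 29. The call did not hold when any 1 library was left out, with log2 fold changes from 0.17 to 0.22. Each of those fits leaves 1 library in a group, and a failure to pass there is not particular to GLA. The call also did not hold by DESeq2 (adjusted p = 0.0990), where 0.767% of all tested genes passed. GLA did not pass with edgeR and no filter on low counts either (adjusted p = 0.544). There 0 of 27535 genes passed, so that fit cannot tell about GLA.

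None of the 3 forms of the element was in the RefSeq window of GLA, which says only that these letters are not in this window. The stretch upstream of both the RefSeq start and the GENCODE gene end is shown because GLA was the member that passed. It is written 5′ to 3′ on the minus strand of GRCh38.p14, with capitals for ATTGG, the reverse complement of CCAAT, a motif picked after the sequence had been read. CCAAT, counted on both strands, occurred 3 times in the 250 bases before the RefSeq start, 2 of them in the stretch shown. As many were found for 2 of the 27 members and 3.55% of all genes with a window, and at least 1 for 10 members and 37.0% of all genes.
GLA (chrX:101408013-101408175, minus strand): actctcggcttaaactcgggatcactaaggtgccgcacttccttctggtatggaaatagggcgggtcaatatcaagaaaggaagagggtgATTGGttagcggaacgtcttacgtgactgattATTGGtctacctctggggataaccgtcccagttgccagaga

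None of the other 7 glycosidases passed. MANBA, the beta-mannosidase that acts late in the breakdown of N-glycans, had 17.5 and 18.5 CPM in PBS and 20.5 and 20.1 CPM with nanoparticles. Its groups did not overlap, and its log2 fold change of 0.17 had an SE of 0.074 (edgeR adjusted p = 0.238). Another gene on the same strand shares 9.69% of the MANBA exon bases. NAGLU, which acts on heparan sulfate, had 17.4 and 14.9 CPM in PBS and 15.4 and 14.4 CPM with nanoparticles, with a log2 fold change of -0.11 (SE 0.088, edgeR adjusted p = 0.564). Its groups overlapped, and PBS replicate 1 was the 1 library that stood above the rest. For NAGLU the share of exon bases in another gene on the same strand is 12.6%. Log2 fold changes were -0.071 for HEXA, the alpha subunit of beta-hexosaminidase, -0.040 for GAA, the acid glucosidase that degrades glycogen, and -0.036 for GUSB, beta-glucuronidase. GLB1, beta-galactosidase, had 0.012 and NEU1, the sialidase, -0.010. GENCODE 29 lists 11 pseudogene entries for GUSB, with which its reads may be shared.

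**Figure D2:**
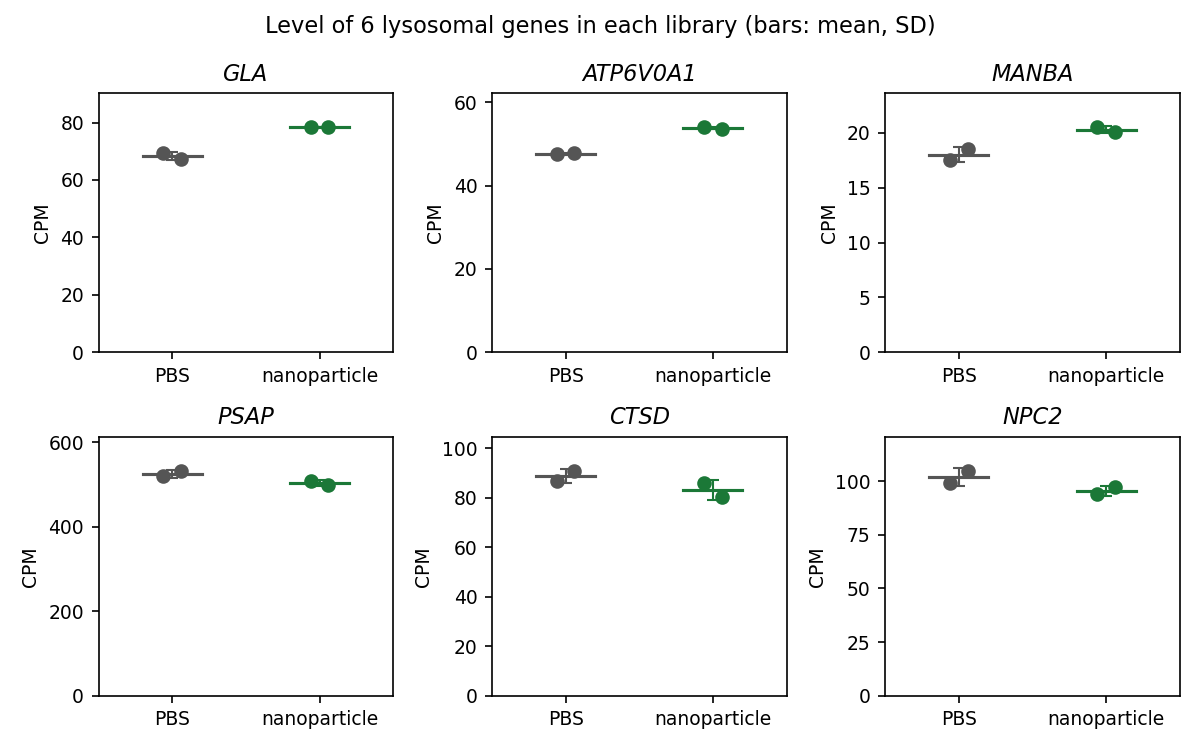
CPM of 6 members in each library (points), with the mean of each group of 2 as a horizontal line and the SD as an error bar, on axes that start at 0. GLA, ATP6V0A1 and MANBA were higher in both nanoparticle libraries, and PSAP, CTSD and NPC2 were lower in both. Only GLA had an adjusted p under 0.05. The 6 are among the 19 members whose groups did not overlap (51.4%, background 46.9%).

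In the proton pump no member passed. ATP6V0A1, an isoform of the large membrane subunit that works with the c ring in moving protons, came nearest. It had 47.6 and 47.8 CPM in PBS and 54.0 and 53.6 CPM with nanoparticles. The groups did not overlap, and the 2 libraries within each group were close. The log2 fold change was 0.17 (SE 0.048, 95% interval 0.074 to 0.27, edgeR adjusted p = 0.0577). It passed in 5 of 15 alternatives. Among them was edgeR with a replicate block (adjusted p = 0.0263), though no label says that the replicate numbers pair the libraries. Another was edgeR with the length and GC trends of each library removed (adjusted p = 0.0377). The gene lies on chromosome 17 from 42458844 to 42522611 (plus strand), and its RefSeq window held none of the 3 forms of the element.

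The other tested pump genes had smaller values. ATP6V0D1, which joins the V0 sector to the central stalk, had a log2 fold change of -0.0064 (SE 0.037), and the accessory subunit gene ATP6AP1 had -0.013 (SE 0.039). ATP6V1A and ATP6V1B2, which form the ATP-hydrolysing head of V1, had log2 fold changes of 0.045 and 0.026. ATP6V1E1 of the outer stalks, ATP6V1D of the central stalk and the regulatory ATP6V1H had -0.040, -0.018 and -0.0083. The 95% intervals of all 5 V1 genes lay within 1.2-fold, and the share over all tested genes was not computed. Over the 8 tested pump genes, 3 were above 0 and 5 below, with a median of -0.0074.

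ATP6V0C, the proteolipid of the c ring, had too few reads to test, with 0 and 1 counts in PBS and 3 and 3 with nanoparticles. The pump is known to need this subunit. In GENCODE 29, 72.1% of its exon bases also lie in 2 other genes on the same strand that are in the count files, and it has 4 pseudogene entries. Reads that fell on more than 1 gene made up 4.78% to 4.81% of the reads in each file, and the part of this overlap in the low count was not tested. IDS, a sulfatase that acts on heparan and dermatan sulfate, had 62 and 43 counts in PBS and 73 and 58 with nanoparticles. The groups overlapped, and the log2 fold change of 0.16 (SE 0.20, 95% interval -0.27 to 0.58) leaves neither direction detectable at this depth. Of its exon bases, 17.4% lie in 2 other genes on the same strand.

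Proteases gave 5 of 7 log2 fold changes below 0, with a median of -0.059 and none past the test. That median was -0.013 with the length trend removed and -0.0098 with length and GC trends removed. CTSD, the main aspartic protease of lysosomes, had 86.8 and 91.0 CPM in PBS and 86.1 and 80.2 CPM with nanoparticles (log2 fold change -0.096, SE 0.043, edgeR adjusted p = 0.265). The groups did not overlap, although nanoparticle replicate 1 was close to PBS replicate 1. Its log2 fold change ran from -0.15 to -0.045 with 1 library left out (without nanoparticle replicates 1 and 2, in that order) and was -0.034 with length and GC trends removed. Of its exon bases, 41.7% also lie in another gene on the same strand. CTSB, a cysteine protease, had 273 and 272 CPM in PBS and 263 and 255 CPM with nanoparticles (log2 fold change -0.073, edgeR adjusted p = 0.233). CTSA, a carboxypeptidase that also protects neuraminidase, had 333 and 349.99 CPM in PBS and 323 and 328 CPM with nanoparticles (log2 fold change -0.068, -0.041 after removal of the length trend, edgeR adjusted p as reported = 0.272). In both genes the nanoparticle libraries were the lower ones, without overlap. CTSZ, a carboxypeptidase, had a log2 fold change of -0.059, and CTSC, a dipeptidyl peptidase, -0.012. TPP1, a tripeptidyl peptidase, had 62.9 and 67.7 CPM in PBS and 69.6 and 65.4 CPM with nanoparticles (log2 fold change 0.048), the highest of the 7 as reported. Another gene on the same strand shares 11.6% of the TPP1 exon bases. CTSL, an endopeptidase with 6 pseudogene entries, had 0.046, and 0.072 against 0.045 for TPP1 with the length trend removed, and in TPP1 and CTSL the groups overlapped.

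Among lipid enzymes, saposins and sulfatases, 5 of 7 were below 0, with a median of -0.057 and none past the test. That median was -0.033 with the length trend removed and -0.020 with length and GC trends removed. PSAP, the precursor of the saposins that present lipids to hydrolases, had 519 and 533 CPM in PBS and 509 and 498 CPM with nanoparticles (log2 fold change -0.063, SE 0.027, edgeR adjusted p = 0.233). LIPA, the acid lipase that splits cholesterol esters, had 67.7 and 70.02 CPM in PBS and 65.1 and 66.6 CPM with nanoparticles (log2 fold change -0.064, SE 0.044), the lowest of the 7 by a margin far under its SE. In both genes the nanoparticle libraries lay below the PBS libraries. PPT1, which removes palmitate from proteins, had a log2 fold change of -0.057 and SMPD1, acid sphingomyelinase, -0.060. ASAH1, acid ceramidase, lay within 58.3 to 58.5 CPM over the 4 libraries. ARSA, which desulfates sulfatide, had a log2 fold change of 0.073 (SE 0.094).

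Membrane proteins and exporters were split, 4 above 0 and 3 below, with a median of 0.0069. SCARB2, the receptor that carries glucocerebrosidase to lysosomes, had 129.6 and 133 CPM in PBS and 136 and 138 CPM with nanoparticles (log2 fold change 0.057, SE 0.035), the highest of the 7 as reported, though MCOLN1 was above it with length and GC trends removed (0.052 against 0.029). NPC2, a soluble cholesterol carrier of the lumen that works with NPC1, had 99.1 and 105 CPM in PBS and 93.9 and 97.2 CPM with nanoparticles (log2 fold change -0.094, SE 0.040, edgeR adjusted p = 0.231), the lowest as reported. NPC2 was at -0.030 with the length trend removed and at -0.033 with length and GC trends removed, where LAMP2 was lower (-0.037). In SCARB2 and NPC2 the groups did not overlap. NPC1, which exports cholesterol through the membrane, had a log2 fold change of 0.013 (SE 0.037), and whether the pair differed was not tested. LAMP1, a heavily glycosylated protein of the lysosomal coat, had 201 and 207 CPM in PBS and 199 and 198 CPM with nanoparticles (log2 fold change -0.037, 95% interval -0.11 to 0.031). CD63, a tetraspanin, had 379 and 382 CPM in PBS and 369 and 365 CPM with nanoparticles (log2 fold change -0.053, edgeR adjusted p = 0.359). Both were lower in each nanoparticle library than in either PBS library, by a few percent, although CD63 turned to 0.0024 with the length trend removed. LAMP2, the partner of LAMP1, had 0.0092 (SE 0.037) and the calcium channel gene MCOLN1 had 0.0069 (SE 0.062), both with overlapping groups.

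Levels were compared between genes per kilobase of principal transcript. CD63 had the highest mean level, 309 CPM per kilobase in PBS and 298 with nanoparticles. PSAP followed with 183 and 175, and CTSA with 159 and 152. After them came ATP6V1E1 (149 and 145) and NPC2 (98.5 and 92.3). CTSB, CTSZ, CTSC and CTSL had PBS means from 64.9 to 70.3, and their ranges over the 4 libraries overlapped. GLA was at 51.9 in PBS and 59.5 with nanoparticles, between NEU1 and ATP6V1H in the order of means over all libraries. At the lower end, apart from IDS and ATP6V0C, were MANBA (5.36 in PBS), ARSA (6.15) and NAGLU (6.35).

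**Figure D3:**
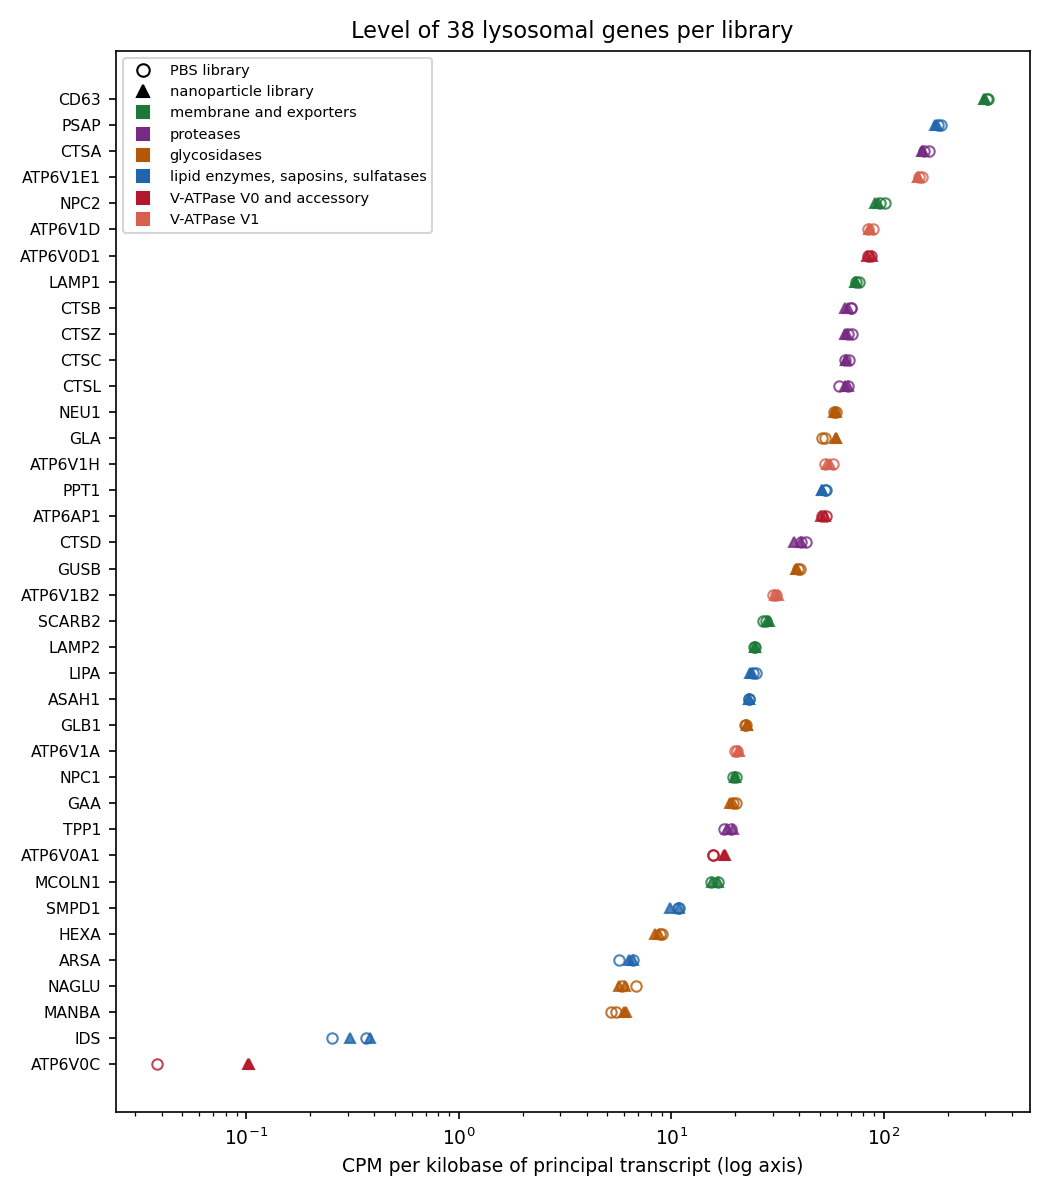
Level of each of the 38 genes in each library, in CPM per kilobase of principal transcript on a log axis, ordered by the mean over libraries and coloured by role. Open circles are PBS and filled triangles nanoparticle libraries, ATP6V0C in PBS replicate 1 (0 counts) is off the axis, and the genes span from 0.309 (IDS, PBS mean) to 309 (CD63) among those tested.

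The members were also split at their own median transcript length and GC content, as a description with no test. Of the 19 members with transcripts of at most 2512 bases, 4 had a log2 fold change above 0 (all tested genes of that length, 36.5%), and of the 18 longer ones 10 did (all longer genes, 60.4%). Of the 19 members with a GC content of at most 51.6%, 11 were above 0 (all such genes, 57.8%), and of the 18 richer ones 3 were (all richer genes, 39.3%). After each library's length trend was taken out, the median over the 37 was 0.015 in place of -0.012, and with length and GC trends removed it was 0.0041. The median of the membrane proteins turned to -0.0010 and -0.00043 under these 2 removals, that of the glycosidases went from -0.023 to 0.0038 and 0.0090, and that of the pump genes turned to 0.024 and 0.018. GLA, with a principal transcript of 1318 bases, then had a log2 fold change of 0.25 (length alone, edgeR adjusted p = 0.00288, background 1.37%). With both trends removed it had 0.25 (edgeR adjusted p = 0.00126, background 1.7%), and ATP6V0A1, at 0.19, passed as well.

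**Figure D4:**
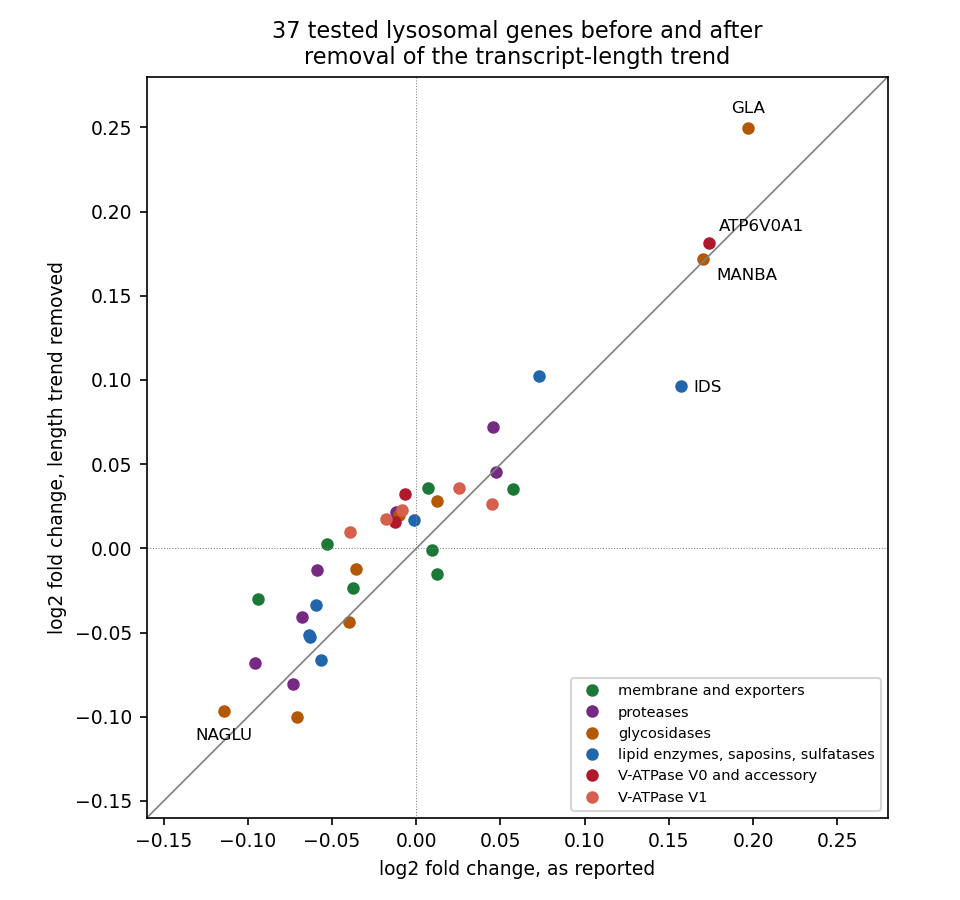
Log2 fold change of the 37 tested members as reported (x axis) and after each library's length trend was taken out (y axis), coloured by role, with the line of equal values. GLA moved from 0.20 to 0.25 and IDS from 0.16 to 0.096, while ATP6V0A1 and MANBA lay near the line.

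Further lysosomal genes were taken from 6 lists that hold none of the 38. Of 100 such genes 92 were tested, and 2 passed, both higher (2.17%, background 2.58%). The median log2 fold change was -0.013, with 42 above 0 (45.7%, background 50.2%) and 50 below. IGF2R, the mannose 6-phosphate receptor that brings new hydrolases to endosomes, had 199.9 and 203 CPM in PBS and 223 and 224 CPM with nanoparticles. OSBP, which delivers cholesterol to damaged lysosomes, had 100.2 and 99.3 CPM in PBS and 112 and 109.6 CPM with nanoparticles. In both genes the nanoparticle libraries were the higher ones, without overlap. IGF2R had a log2 fold change of 0.15 (SE 0.032, edgeR adjusted p = 0.0143), and 0.026 after removal of the length trend (adjusted p = 0.795). Its principal transcript has 14044 bases. OSBP had 0.15 (SE 0.037, edgeR adjusted p = 0.0296), and 0.13 after removal of the length trend (adjusted p = 0.102). Neither passed with any 1 library left out, though each of those fits leaves 1 library in a group. Their log2 fold changes there ran from 0.14 to 0.16 for IGF2R and from 0.14 to 0.17 for OSBP.

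None of the 12 further pump genes tested passed, with 4 above 0 (33.3%, background 50.2%) and 8 below. They ran from ATP6V1G1 of the outer stalks (log2 fold change 0.052) to ATP6V1C2, at 0.241 to 0.629 CPM (-1.15, SE 0.44, edgeR adjusted p = 0.178). None of 26 further hydrolases and activators passed, with 8 above 0 (30.8%, background 50.2%) and 18 below. Their median of -0.048 was -0.016 with the length trend removed and -0.012 with length and GC trends removed. Their highest value was that of IDUA, which acts on dermatan and heparan sulfate (0.21, SE 0.14, but 0.028 without PBS replicate 1 and 0.016 without nanoparticle replicate 2), and their lowest CTSH, an aminopeptidase (-0.20, SE 0.097). None of 14 further membrane proteins and transporters passed, from SIDT2 (0.18, SE 0.068) to the sialic acid exporter gene SLC17A5 (-0.11, SE 0.047). In the sorting list of 11 genes the lowest was GNPTG, a subunit of the enzyme that starts the mannose 6-phosphate tag (-0.12, SE 0.060). Among 11 tested genes of the response to lysosomal damage, LRRK2, a kinase, was highest (0.23, SE 0.11, edgeR adjusted p = 0.287) and LGALS3, a galectin that marks torn lysosomes, lowest (-0.097, SE 0.062).

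The factors that bind the promoter element, and the mTORC1 genes that control them, gave 18 tested genes, of which none passed. TFE3 had 105 and 102 CPM in PBS and 106 and 106 CPM with nanoparticles (log2 fold change 0.029, SE 0.037). TFEB lay at 1.48 to 2.16 CPM and MITF at 2.16 to 2.49 CPM over the 4 libraries, and TFEC had at most 3 counts. FNIP1, a partner of folliculin, was the highest of the 18 (log2 fold change 0.18, SE 0.056, edgeR adjusted p = 0.0972), and TFEB the lowest (-0.13, SE 0.23).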

How the data were processed

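Messenger RNA was measured in 4 libraries (TruSeq Stranded mRNA, per the labels' protocols), 2 per group. The deposited values are whole read counts for each Ensembl gene. The submitters' processing notes name bcl2fastq (2.20), cutadapt (3.5), STAR (2.7.6a), Picard, HTSeq (2.0.2) and the build GRCh38. Its annotation release, strand setting and overlap mode were not given in the sources used. Reads not assigned to a single gene, 13.7% to 14.8% of each file, entered neither library sizes nor tests. They include the 4.78% to 4.81% that fell on more than 1 gene.

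A gene name table gave symbols for 61369 of 61541 genes and GENCODE 29 for 159 more. Length and GC content are those of the principal transcript in GENCODE 29. Counts were filtered by filterByExpr, scaled by TMM and tested two-sided by edgeR's quasi-likelihood method (edgeR 4.0.16 in R 4.3.3), adjusted by Benjamini-Hochberg over 15778 genes at a threshold of 0.05. The SE is the log2 fold change divided by the root of its F statistic. The code was tested on simulated data. Replicates differed beyond sampling noise (chi-square per degree of freedom 1.86 in PBS, 2.05 with nanoparticles). Each library was counted as its own sample, although this spread does not show that the libraries came from separate cultures.

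The members and lists were chosen with earlier results of these data known. Genes named by rule were those past the threshold, the highest and lowest fold change in each role or list, and the 3 highest levels per kilobase. All other members are given too, and MANBA, CTSB and LAMP1 in more detail than that rule asks, a choice made after their values were seen, as was that of TFE3, MITF and TFEC. Alternatives were other scalings, other count filters, DESeq2 1.42.0, limma-voom (limma 3.58.1), a replicate block, removal of length and GC trends (robust splines, 4 degrees of freedom, genes above 5 CPM, MASS 7.3.60.0.1), mitochondrial genes left out and each library left out. Figures were drawn with matplotlib 3.10.9.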

Additional observations from a re-analysis of the deposited data

How the results depend on the processing

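As reported, 407 genes, 1 member and 2 other lysosomal genes passed. Over all genes the number was 121 by DESeq2, 759 with the replicate block, 216 with the length trend removed, 268 with length and GC trends removed, and 0 by edgeR without a low-count filter. With 1 library left out it was 0 to 200, with 0 without PBS replicate 1 (1562 genes at an unadjusted p under 0.05) and 0 without PBS replicate 2 (1672 genes); there the lone library is assumed to vary like the other group. No label says that the replicate numbers pair the libraries. Same-numbered deviations had a correlation of 0.036, which cannot exclude pairing. Of the members, 2 (GLA and ATP6V0A1) passed with total counts, a mean of at least 50 counts, the replicate block, length and GC trends removed, or no mitochondrial genes. That is 5.41% of 37, against 3.02%, 4.8%, 4.81%, 1.7% and 2.96% of all genes tested in the same fits. It is near the background with the 50-count minimum and the block. In the other fits 2 members are too few to tell from the background, as 1 member alone is 2.7% of 37. None (0) passed by DESeq2, without a low-count filter or with any 1 library left out. Of the other lysosomal genes, 1 passed by DESeq2, 1 with length and GC trends removed, and 0 with the length trend removed, without a low-count filter or with any 1 library left out. The difference of the summed members was -80.5 CPM with TMM library sizes and -96.2 to -35.9 CPM with 1 library left out. The longer, core and shortest forms of the promoter element gave 2, 5 and 8 members.

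Of 552 member values under alternatives, 50 changed direction, in 19 members. Of the other 18 members, 11 moved by over 1.5 times with some library left out, and 7 did not (GLA, ATP6V0A1, MANBA, CTSB, PSAP, PPT1 and GUSB). With upper-quartile scaling, log2 fold changes became -0.0035 (LAMP2), -0.00017 (NPC1), -0.0058 (MCOLN1) and -0.00038 (GLB1). With total counts ASAH1 had 0.0033. Without a low-count filter ASAH1 had 0.0083, ATP6V0D1 0.0031 and ATP6V1H 0.0013. With the length trend removed the values were -0.0010 (LAMP2), 0.0024 (CD63), -0.015 (NPC1), 0.021 (CTSC), 0.020 (NEU1), 0.017 (ASAH1), 0.015 (ATP6AP1), 0.033 (ATP6V0D1), 0.018 (ATP6V1D), 0.0100 (ATP6V1E1) and 0.023 (ATP6V1H). With both trends removed they were -0.037 (LAMP2), -0.00043 (NPC1), 0.013 (CTSC), 0.020 (NEU1), 0.021 (ATP6AP1), 0.036 (ATP6V0D1), 0.0088 (ATP6V1D), 0.0041 (ATP6V1E1) and 0.016 (ATP6V1H). With 1 library left out the ranges were -0.0054 to 0.021 (LAMP2), -0.0091 to 0.032 (NPC1), -0.053 to 0.067 (MCOLN1), -0.045 to 0.019 (CTSC), -0.020 to 0.11 (CTSL), -0.0067 to 0.10 (TPP1), -0.029 to 0.0071 (NEU1), -0.23 to 0.0043 (NAGLU), -0.0035 to 0.0014 (ASAH1), -0.13 to 0.011 (SMPD1), -0.086 to 0.45 (IDS), -0.039 to 0.19 (ARSA), -0.050 to 0.024 (ATP6AP1), -0.047 to 0.034 (ATP6V0D1), -0.057 to 0.020 (ATP6V1D), -0.072 to 0.056 (ATP6V1H) and -0.37 to 0.17 (TFEB). The cause of these changes was not tested.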
